A study of Mus musculus with 6 samples.

Results

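The genes described here encode the DNA replication machinery, 47 genes of the 27546 listed for mouse colon. The list follows what the proteins are known to do, from the recognition of origins to the supply of nucleotides, and was drawn up with earlier results of these data known, although no measured value enters its rule. RNA-Seq had been carried out on colon of 3 Gm31629-/- mice, which lack a long noncoding RNA gene, and 3 WT littermates of the C57BL/6 strain (C57BL/6J in the study's methods). Mice of both genotypes were 8 weeks of age and drank 3% DSS (dextran sulfate sodium, which injures the colonic epithelium) for 7 days before they were killed on day 8. There were therefore no mice without DSS, and the comparison is of genotypes during injury. The knockout was of the whole mouse and not of the epithelium alone, and the level of Gm31629 itself was not analysed here. Values are FPKM (fragments scaled by the exon length of the gene and by the number of mapped fragments in the library), with 1 library for each mouse. The study's methods speak of RNAs pooled from 3 mice per genotype, while the deposited table holds a column per mouse, and each column was taken as a mouse. Those methods also state that male mice were used. Yet the Y-linked genes Eif2s3y, Ddx3y, Kdm5d, and Uty were above 0 only in Gm31629-/- mouse 1. Xist was at 0.0061 FPKM in that mouse and at 8.35 to 13.8 FPKM in the others. Any part of sex in the differences was not tested.

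Before a cell copies its DNA, the origin recognition complex marks origins, and Cdc6 and Cdt1 load the ring-shaped MCM2-7 helicase there. Kinases then add Cdc45 and the GINS complex to the ring, the polymerases copy the strands behind it, and a sliding clamp holds them on the template. Many of these genes are transcribed as cells approach S phase under the control of E2F factors, and in the colon the dividing cells lie mostly at the base of the crypts.

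In Gm31629-/- colon, more of these genes fell than rose, and about as many did not pass the test. Of the 47 genes, 45 passed the filter of a mean of 0.5 FPKM over the 6 mice, and 22 of these fell, 2 rose, and 21 did not pass (limma on log2(FPKM + 1), Benjamini-Hochberg adjusted p under 0.05 over 14657 genes, n = 3 against 3). Over all genes tested, 14.6% fell and 28.9% rose. All 4 nucleotide supply genes fell, as did all 3 licensing factors and 4 of the 6 MCM2-7 genes, while the origin recognition complex divided, with Orc1 lower and Orc3 and Orc4 higher. The median log2 fold change of the 45 genes was -0.67, where that of all tested genes was 0.15, and 37 of the 45 differences were negative. Of the genes that fell, 14 did so by more than 1 on the log2 scale, which 4.64% of all tested genes did. In 21 of the 45 genes every Gm31629-/- mouse lay below every WT mouse, against a share of 21.5% of all tested genes. In 3 of the 45 every one lay above, against a share of 36.3%.

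**Figure D1:**
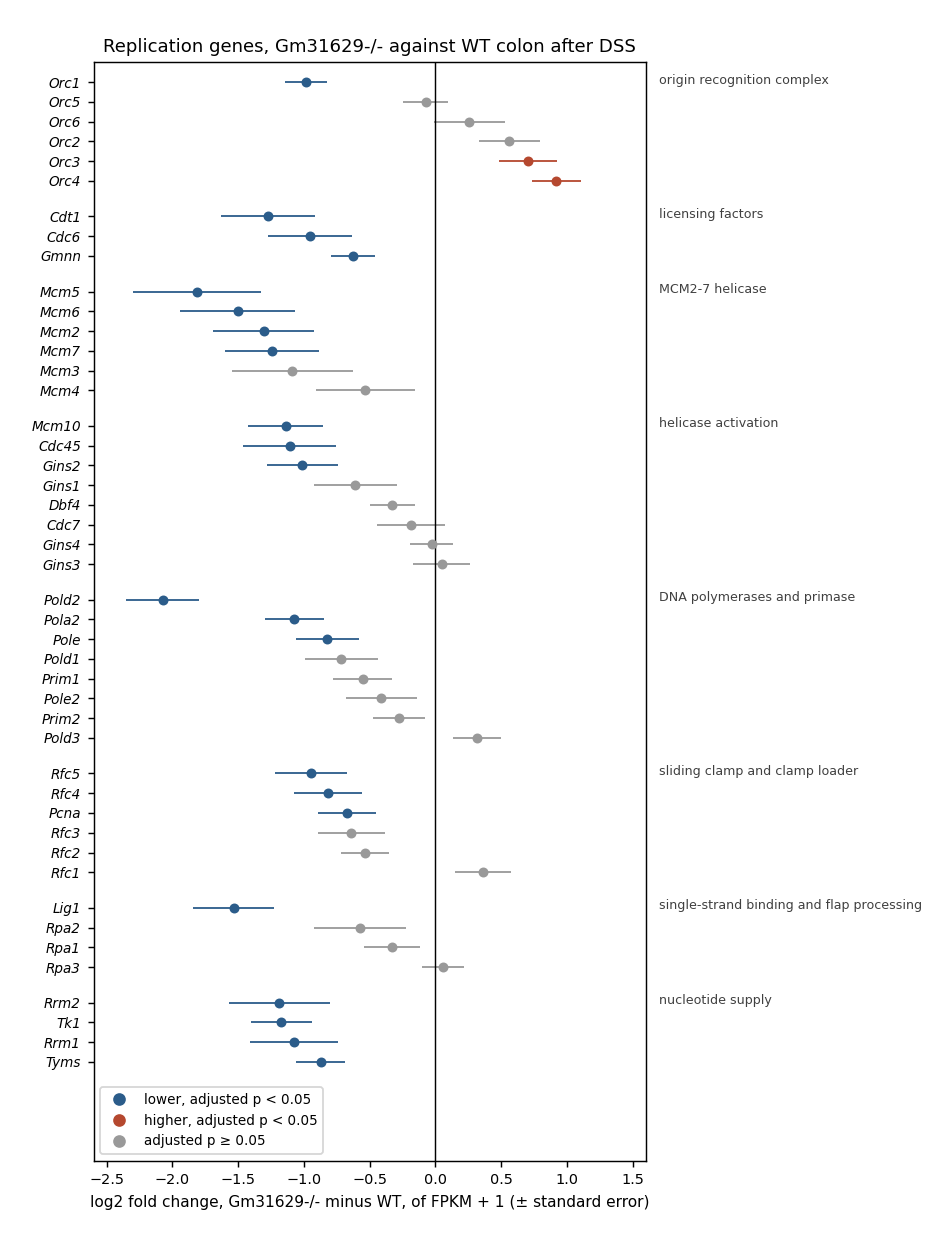
Log2 fold change of FPKM + 1 between Gm31629-/- and WT mice (x axis, negative values lower in Gm31629-/-) for the 45 tested replication genes, grouped by complex, where points are estimates, bars are standard errors and colors mark genes past the threshold. The 22 lower genes reach -2.07 for Pold2, and the 2 higher genes, Orc3 and Orc4, belong to the origin recognition complex.

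The WT mice were not alike in these genes. WT mouse 2 was the lowest of the 3 WT mice in 41 of the 45 genes, where it was the lowest in 32.6% of all tested genes. Its median level was 0.49 of the mean of the other two WT mice, against 1.00 over all tested genes, and 23 of the 45 genes were at or below 0.5 of that mean. Gm31629-/- mouse 2 was the highest of its group in 35 of the 45 genes, against a share of 44.0% of all tested genes, and lay above WT mouse 2 in 23 of the 45. Summed over the 47 genes, the level was 160, 199, and 140 FPKM in Gm31629-/- mice 1 to 3 and 368, 197, and 388 FPKM in WT mice 1 to 3. The groups thus overlapped in the sum, through WT mouse 2 and Gm31629-/- mouse 2. Without WT mouse 2, 27 genes passed the test as lower and 1 as higher, with a median log2 fold change of -0.97, where 11.2% and 22.3% of all tested genes passed. Leaving out another mouse lowered the count, to 6 genes without WT mouse 1 or without WT mouse 3, 7 without Gm31629-/- mouse 3, 12 without Gm31629-/- mouse 1, and 20 without Gm31629-/- mouse 2. In the same order, 8.63%, 6.69%, 11.4%, 13.5%, and 13.5% of all tested genes passed as lower. As higher, 3 of the 45 genes passed without Gm31629-/- mouse 3 and 1 in each of the other 4 of these fits, where 21.5%, 19.1%, 28.8%, 28.0%, and 26.1% of all tested genes did, again in that order. Orc1, Pola2, Pold2, Lig1, Tyms, and Tk1 passed as lower and Orc4 as higher in all 6 fits with a mouse left out, and the other 17 genes that passed missed the threshold in at least 1 of them. Of those 17, Orc3, Cdc6, and Rfc5 passed in 1 of the 6 fits. Mcm2, Mcm5, Mcm6, Cdc45, Pole, Pcna, Rfc4, Rrm1, and Rrm2 passed in 2. Cdt1, Gmnn, Mcm7, Mcm10, and Gins2 did so in 3. Among genes that had not passed, Mcm3, Gins1, Prim1, Pold1, Rfc3, and Rpa2 each passed in 1 of these fits, that without WT mouse 2.

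**Figure D2:**
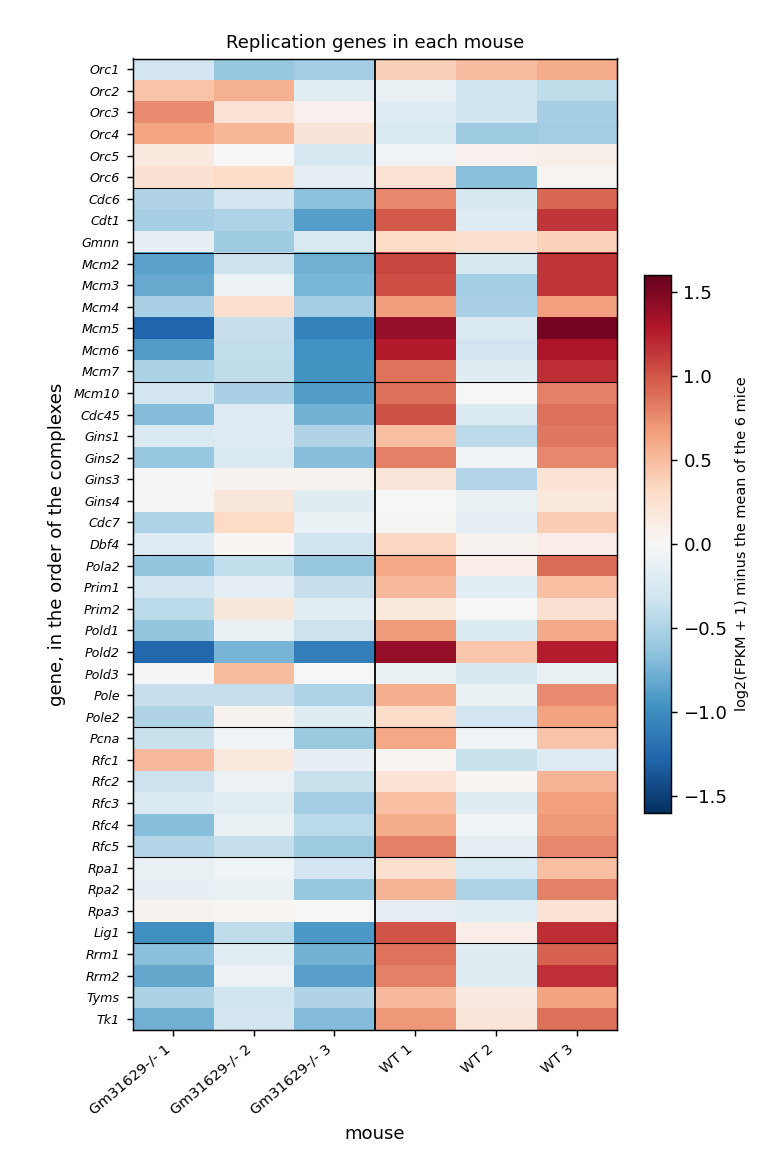
Level of the 45 tested replication genes (rows, in the order of the complexes) in each mouse (columns), as log2(FPKM + 1) minus the mean of the 6 mice, with red above and blue below that mean. WT mice 1 and 3 are red in most rows, while WT mouse 2 is pale or blue, and it is the lowest WT mouse in 41 of the 45 rows.

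Other features of the tissue moved with the genotype and with WT mouse 2. Markers of colon epithelium were high in all 6 libraries, and their summed level over 15 genes, Krt8 the most abundant, was 7886 to 9367 FPKM in Gm31629-/- and 12852 to 13999 FPKM in WT mice, with 7 of 15 lower. WT mouse 2 had the highest of these sums. The 10 proliferation markers, of which Ube2c was the most abundant, summed to 10.4, 35.6, and 11.3 FPKM in Gm31629-/- mice and to 75.1, 40.1, and 62.4 FPKM in WT mice, and 7 of the 9 tested were lower. The 8 stem cell markers, led by Cdca7, summed to 13.0 to 29.2 FPKM in Gm31629-/- mice and 18.8 to 55.7 FPKM in WT mice, with 2 of 6 tested lower and WT mouse 2 the lowest WT mouse. Ascl2, a transcription factor of crypt base stem cells, was chosen after its values were seen, at 0.167, 0.134, and 0.201 FPKM in Gm31629-/- mice and 3.90, 0.171, and 6.06 FPKM in WT mice. In this marker WT mouse 2 was at the level of the Gm31629-/- mice, and Ascl2 did not pass the test (-1.56, adjusted p = 0.074, limma). The stem cell markers differed in this. In Cdca7 and Axin2, which passed as lower, WT mouse 2 was above every Gm31629-/- mouse, at 7.82 and 1.53 FPKM. In Smoc2 it was below every Gm31629-/- mouse, at 3.84 FPKM against 4.06 to 21.5 FPKM. Smooth muscle markers, led by Acta2, summed to 1323 to 2050 FPKM against 25.7 to 45.8 FPKM in WT mice, with 11 of 11 tested higher. Fibroblast markers, led by Col3a1, summed to 207 to 589 against 19.8 to 41.2 FPKM, with 8 of 8 higher. Macrophage markers, led by Lyz2, summed to 576 to 1346 against 94.5 to 104 FPKM with 7 of 8 higher, and neutrophil markers, led by Ly6g, to 507 to 1029 against 70.4 to 128 FPKM with 6 of 6 tested higher. Ly6g made up most of the neutrophil sum, at 288, 596, and 965 FPKM in Gm31629-/- mice. S100a9 had the opposite order over these mice, at 120, 77.2, and 35.0 FPKM. B and plasma cell markers, led by Jchain, summed to 339 to 535 against 110 to 124 FPKM with 6 of 7 tested higher, and T cell markers, led by Trac, to 19.3 to 36.4 against 8.22 to 12.4 FPKM with 5 of 8 higher. Germinal center B cells divide rapidly, and their markers, led by Fas, summed to 21.8 to 34.2 against 12.2 to 17.5 FPKM with 3 of 4 tested higher, although 4 of the 8 were under 0.5 FPKM in every mouse. Fas made up most of that sum and did not pass (adjusted p = 0.20, limma). The part of tissue makeup in the replication genes was not tested, and in whole tissue fewer dividing cells and less RNA per cell cannot be told apart.

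When every library was scaled to its 15 epithelial markers, 3 of the 45 replication genes passed as lower (Orc1, Pold2, and Lig1) and 6 as higher (Orc2, Orc3, Orc4, Pold3, Rfc1, and Rpa3). This scaling raised the median log2 fold change of all tested genes from 0.15 to 0.61, and that of the replication genes from -0.67 to -0.22. Of all tested genes, 3.44% passed as lower and 50.4% as higher under this scaling, which shifts all genes of a library alike. The 15 markers themselves did not move alike, with 7 lower, 8 not passing, and a median log2 fold change of -0.50. Their values ran from -3.14 for Cdx2 to 0.58 for Ocln, with Epcam at 0.005 and Cdh1 at -0.04. The counts under this scaling thus depend on which markers are used. Scaling by the median ratio, which put the median of all tested genes at 0.02, gave a median of -0.84 for the replication genes and 26 lower genes and 1 higher, with 21.0% of all tested genes lower and 26.1% higher.

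**Figure D3:**
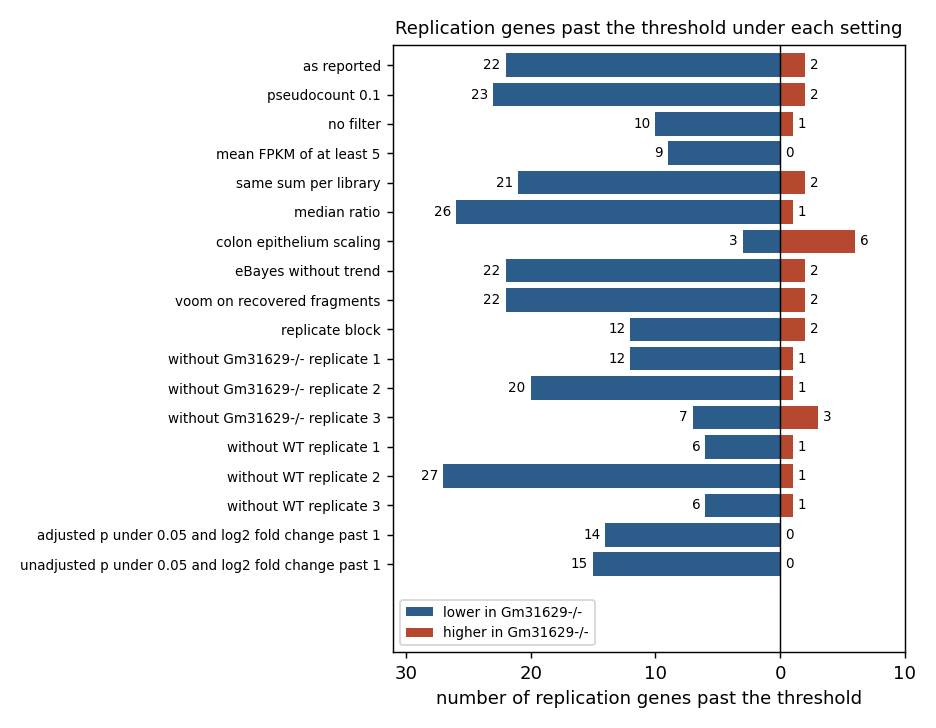
Number of replication genes past the threshold (x axis, lower genes to the left and higher genes to the right of 0) under each setting of the analysis (rows). The count of lower genes runs from 3 with colon epithelium scaling to 27 without WT mouse 2, and is 22 as reported.

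The sequence around the transcript starts of the genes was searched for words that E2F factors are known to bind. The words were TTTCCCGC, TTTCGCGC, TTTGCCGC, and TTTGGCGC, each on both strands, in RefSeq windows (GRCm38.p6) of 250 bases before to 50 bases after the start of a transcript. Windows were found for 39 of the 47 genes, and 15 of these genes (38.5%) held a word, against 704 of 27025 genes (2.61%) in all. In 9 of the 15 genes a word lay wholly before the start, and in the others only at or after it. A word was held by 7 of the 19 lower genes with a window, by 1 of the 2 higher genes, and by 6 of the 16 that did not pass. The median log2 fold change was -0.97 for the 14 tested genes with a word and -0.67 for the 23 without, and the ranges overlapped, from -1.81 to 0.70 and from -2.07 to 0.92. Pold2, the gene with the lowest value, had no word in its window. A match describes the letters and is not evidence of a bound site.

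The stretches before the RefSeq start of Mcm5 and Mcm6, both lower, are shown because each holds 2 overlapping words, and that of Cdc6 because it holds 1 word and the gene fell. The words are in capitals. Mcm5 (chr8:75109349-75109508, plus strand) has TTTCGCGC and the reverse complement of TTTGGCGC from 153 bases before the start, Mcm6 (chr1:128359706-128359865, minus strand) has its overlapping pair from 110 bases and a further TTTGGCGC from 47 bases before it, and Cdc6 (chr11:98907991-98908150, plus strand) has the reverse complement of TTTCCCGC from 138 bases before it. The Cdc6 stretch precedes 1 of its annotated starts and lies within the gene as GENCODE M21 places it (chr11:98907801-98923940), outside its exons.
Mcm5: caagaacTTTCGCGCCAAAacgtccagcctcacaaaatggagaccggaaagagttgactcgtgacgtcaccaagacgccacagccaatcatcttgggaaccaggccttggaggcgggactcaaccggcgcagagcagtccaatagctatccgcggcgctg
Mcm6: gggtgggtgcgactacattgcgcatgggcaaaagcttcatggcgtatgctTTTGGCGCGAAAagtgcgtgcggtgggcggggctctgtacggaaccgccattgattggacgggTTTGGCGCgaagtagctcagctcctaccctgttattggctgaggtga
Cdc6: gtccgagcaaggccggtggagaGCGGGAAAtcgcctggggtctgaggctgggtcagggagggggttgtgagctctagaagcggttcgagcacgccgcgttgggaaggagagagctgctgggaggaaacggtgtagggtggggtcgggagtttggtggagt

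The next set of 30 bases each is shown because the genes carry a word and yet differ in direction, Orc1 having fallen, Orc3 having risen, and Gins3 not having passed the test. Orc1 lies at chr4:108579416-108579445 on the plus strand, Orc3 at chr4:34614965-34614994 on the minus strand, and Gins3 at chr8:95633507-95633536 on the plus strand. Each stretch ends 8 bases (Orc1) or 22 bases (Orc3 and Gins3) before the RefSeq start. By the GENCODE M21 locations, the Orc1 stretch runs into the gene and the Gins3 stretch lies within it (chr8:95633453-95645060), while that of Orc3 lies before it.
Orc1: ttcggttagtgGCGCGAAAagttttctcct
Orc3: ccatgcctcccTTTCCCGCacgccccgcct
Gins3: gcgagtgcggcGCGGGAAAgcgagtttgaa

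Orc1, the largest subunit of the origin recognition complex, is the one whose level is known to vary with the cell cycle. Orc1 (ENSMUSG00000028587, chr4:108579423-108614833, plus strand) was at 0.672, 0.358, and 0.407 FPKM in Gm31629-/- mice 1 to 3 and at 1.71, 1.92, and 2.14 FPKM in WT mice 1 to 3. All Gm31629-/- mice were below all WT mice, and WT mouse 2 was between the other two WT mice. Orc1 fell by 0.99 on the log2 scale (SE 0.16, adjusted p = 0.0034, limma), with a mean 4.01-fold higher in WT, and this gene had the same log2 fold change of -0.99 without WT mouse 2 (adjusted p = 0.016). Adding 1 FPKM before the log makes the log2 value smaller than the ratio of the means would give. Of the exonic bases of Orc1, 10.8% are shared with Gm12743 on the opposite strand.

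Orc4 and Orc3, which belong to the core of the same complex, went the other way. Orc4 (chr2:48902824-48950277, minus strand) was at 2.91, 2.65, and 1.92 FPKM in Gm31629-/- mice and at 1.12, 0.685, and 0.721 FPKM in WT mice. Orc3 (chr4:34570796-34614944, minus strand) was at 6.01, 3.91, and 3.37 FPKM and at 2.62, 2.34, and 1.87 FPKM. In both genes the groups did not overlap and the Gm31629-/- mice were higher. Orc4 rose by 0.92 (SE 0.19, adjusted p = 0.0077, limma), and without WT mouse 2 by 0.86 (adjusted p = 0.033). Orc3 rose by 0.70 (SE 0.22, adjusted p = 0.036, limma) and did not pass without WT mouse 2, at 0.72 with an adjusted p of 0.085, as in 4 of the other 5 fits with a mouse left out.

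The other 3 subunits did not pass the test. Orc6, which helps to recruit the helicase and was the most abundant subunit by the mean of the WT mice, was at 3.92, 4.08, and 2.73 FPKM in Gm31629-/- mice and at 3.88, 1.62, and 3.28 FPKM in WT mice, and the groups overlapped. Orc2 (log2 fold change 0.56, adjusted p = 0.087) and Orc5 (-0.08, adjusted p = 0.74) overlapped likewise, and 29.8% of the exonic bases of Orc2 are shared with Nif3l1 on the opposite strand. Orc1 was the least abundant subunit in each Gm31629-/- mouse and Orc4 in each WT mouse. The ratio of Orc1 to Orc4 FPKM was 0.231, 0.135, and 0.212 in Gm31629-/- mice and 1.52, 2.80, and 2.97 in WT mice, a pair chosen after its values were seen and a ratio that does not depend on how a library is scaled.

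**Figure D4:**
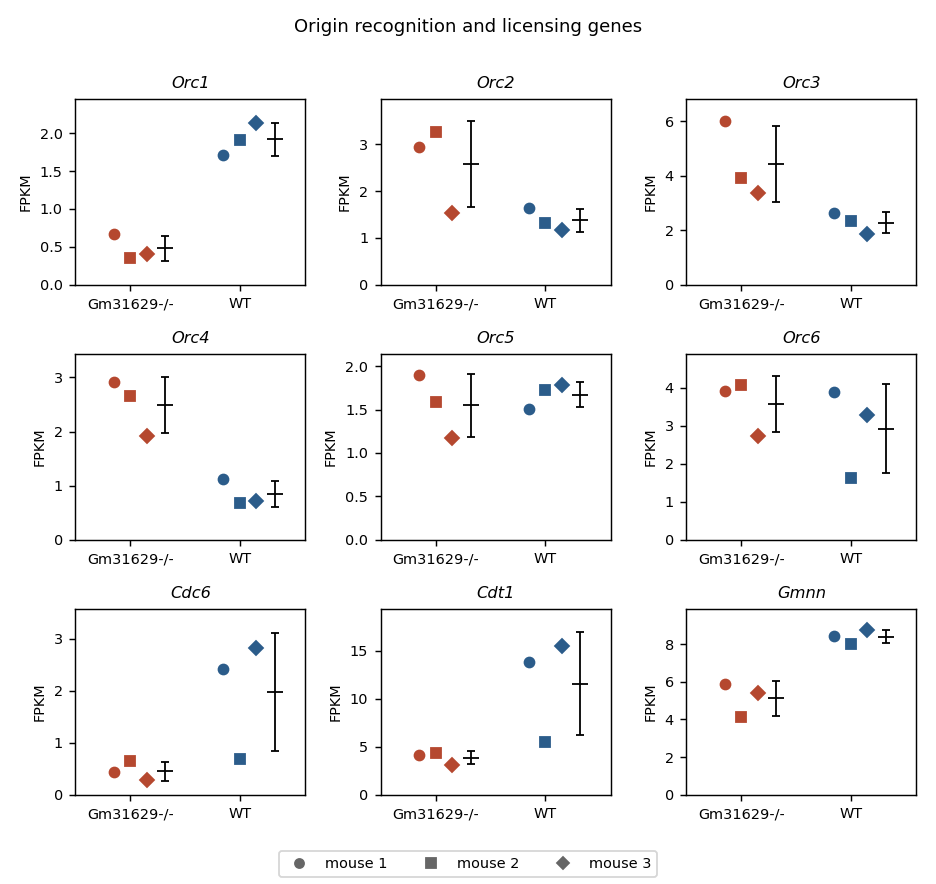
FPKM of the 6 origin recognition genes and the 3 licensing factors in each mouse (points, circles for mouse 1, squares for mouse 2 and diamonds for mouse 3 of each genotype, the numbers pairing no mice), with the mean and SD (black). Orc1 and the licensing factors are lower in Gm31629-/- mice, Orc3 and Orc4 are higher, and WT mouse 2 lies near the Gm31629-/- mice in Cdc6 and Cdt1.

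Licensing is the loading of the helicase before S phase, for which Cdc6 and Cdt1 are required and which geminin (Gmnn) blocks by binding Cdt1. All 3 genes fell. Cdt1 (chr8:122568015-122573554, plus strand) was at 4.15, 4.31, and 3.05 FPKM in Gm31629-/- mice and at 13.8, 5.47, and 15.5 FPKM in WT mice. Cdc6 was at 0.436, 0.642, and 0.281 FPKM and at 2.43, 0.680, and 2.82 FPKM. For these loading factors the groups were apart, but WT mouse 2 was close to Gm31629-/- mouse 2. Cdt1 fell by 1.27 (SE 0.36, adjusted p = 0.025) and Cdc6 fell by 0.95 (SE 0.32, adjusted p = 0.046, limma), and without WT mouse 2 the values were -1.70 and -1.32. Of the 6 fits with a mouse left out, Cdt1 passed in 3 and Cdc6 in 1.

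Gmnn, the inhibitor, was at 5.90, 4.11, and 5.39 FPKM in Gm31629-/- mice and at 8.41, 8.04, and 8.75 FPKM in WT mice. Here WT mouse 2 was near the other WT mice. Gmnn fell by 0.63 (SE 0.16, adjusted p = 0.020, limma), and did not pass without WT mouse 2, at -0.66 with an adjusted p of 0.053. The ratio of Cdt1 to Gmnn was 0.704, 1.05, and 0.566 in Gm31629-/- mice and 1.64, 0.680, and 1.77 in WT mice, so the groups overlapped in it.

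The MCM2-7 genes encode the ring that unwinds DNA, in which the 6 subunits are present in equal number. Mcm5 (ENSMUSG00000005410, chr8:75109569-75128439, plus strand) was at 2.08, 4.75, and 2.52 FPKM in Gm31629-/- mice and at 18.8, 5.35, and 20.5 FPKM in WT mice. Mcm6 (ENSMUSG00000026355, chr1:128331590-128359664, minus strand) was at 3.77, 5.74, and 3.52 FPKM and at 20.3, 6.19, and 20.7 FPKM. In both, WT mice 1 and 3 stood far above every other mouse, and WT mouse 2 was just above Gm31629-/- mouse 2. Mcm5 fell by 1.81 (SE 0.49, adjusted p = 0.022, limma) and Mcm6 by 1.51 (SE 0.43, adjusted p = 0.028, limma), and without WT mouse 2 the differences were -2.38 and -2.03. Each passed in 2 of the 6 fits with a mouse left out.

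Mcm7, by a narrow margin the most abundant MCM gene by the mean of the WT mice, was at 6.10, 6.66, and 4.22 FPKM in Gm31629-/- mice and at 17.6, 7.88, and 21.9 FPKM in WT mice, and 12.6% of its exonic bases are shared with other genes, mostly Ap4m1 on the opposite strand. Mcm2, which had the lowest FPKM of the 6 genes in every mouse, was at 1.52, 2.60, and 1.68 FPKM and at 8.53, 2.83, and 9.11 FPKM. The pattern over the mice was that of Mcm5. Mcm2 fell by 1.31 (SE 0.38, adjusted p = 0.030, limma) and Mcm7 by 1.24 (SE 0.36, adjusted p = 0.027, limma).

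Mcm3 and Mcm4 did not pass the test. Mcm3 was at 3.75, 6.77, and 4.03 FPKM in Gm31629-/- mice and at 16.0, 4.71, and 17.5 FPKM in WT mice (log2 fold change -1.09, adjusted p = 0.092). Mcm4 was at 3.62, 6.87, and 3.52 FPKM and at 9.46, 3.59, and 9.38 FPKM (-0.53, adjusted p = 0.28). In each of these genes WT mouse 2 was below Gm31629-/- mouse 2, and without WT mouse 2 Mcm3 passed (adjusted p = 0.0088) and Mcm4 did not (adjusted p = 0.053). Summed over the 6 genes, the level was 20.9, 33.4, and 19.5 FPKM in Gm31629-/- mice and 90.6, 30.6, and 99.1 FPKM in WT mice.

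Mcm5 and Mcm4 had the lowest and the highest log2 fold change of the MCM genes and were set against each other for that reason, as a description. The ratio of Mcm5 to Mcm4 FPKM was 0.575, 0.691, and 0.717 in Gm31629-/- mice and 1.98, 1.49, and 2.19 in WT mice, and WT mouse 2 was with its group in this ratio. Divided by the summed proliferation markers, the MCM sum was 2.01, 0.937, and 1.72 in Gm31629-/- mice and 1.21, 0.763, and 1.59 in WT mice. The groups overlapped in this second ratio, in which the MCM genes and the proliferation markers are set against each other within a mouse.

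**Figure D5:**
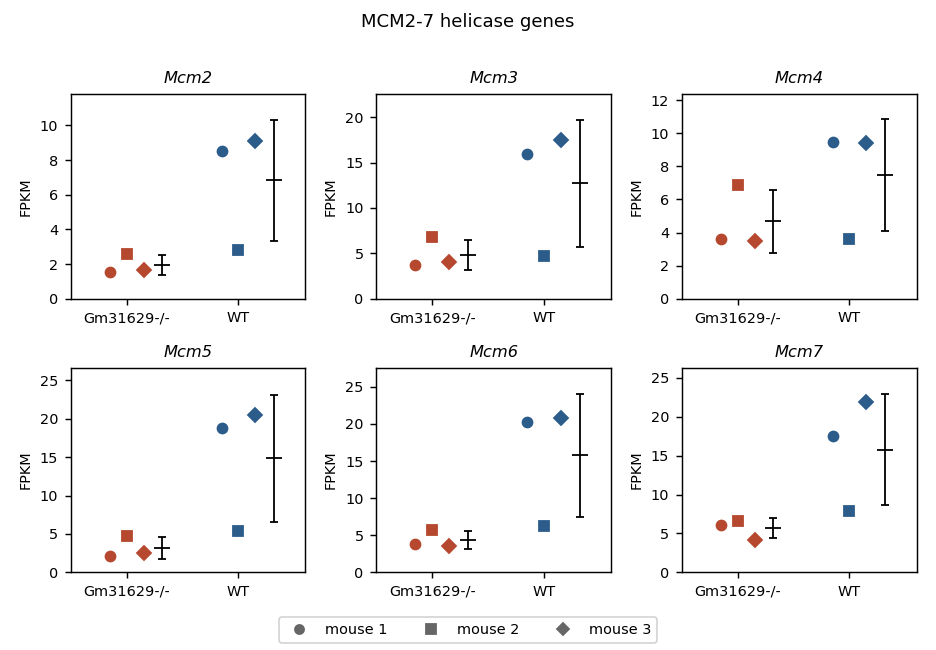
FPKM of the 6 MCM2-7 genes in each mouse (points, circles for mouse 1, squares for mouse 2 and diamonds for mouse 3 of each genotype, the numbers pairing no mice), with the mean and SD (black). WT mice 1 and 3 are well above the Gm31629-/- mice in every panel, and WT mouse 2 is close to or below Gm31629-/- mouse 2, as in Mcm4 at 3.59 against 6.87 FPKM.

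Activation of the loaded helicase needs Cdc45, the 4 GINS subunits, Mcm10, and the kinase Cdc7 with its activator Dbf4, and 3 of these 8 genes fell. Mcm10, which acts as the active helicase leaves the origin, was at 1.20, 0.888, and 0.446 FPKM in Gm31629-/- mice and at 3.98, 1.71, and 3.74 FPKM in WT mice. Cdc45 was at 1.28, 2.21, and 1.18 FPKM and at 6.48, 2.15, and 5.84 FPKM. Mcm10 separated the groups, while in Cdc45 WT mouse 2 was slightly below Gm31629-/- mouse 2. Mcm10 fell by 1.14 (SE 0.28, adjusted p = 0.017, limma) and Cdc45 by 1.11 (SE 0.35, adjusted p = 0.039, limma).

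The GINS genes did not move as a block. Gins2 was at 0.477, 0.899, and 0.399 FPKM in Gm31629-/- mice and at 2.90, 1.17, and 2.82 FPKM in WT mice, without overlap, and fell by 1.01 (SE 0.27, adjusted p = 0.021, limma). Of its exonic bases 67.3% are shared with Gse1 on the opposite strand, and fragments of the pair cannot be told apart where counting ignores strand, which the sources used here do not state. Gins4 was the most abundant of the 8 genes in WT mice, at 10.7, 9.76, and 12.1 FPKM, with 10.5, 12.3, and 9.20 FPKM in Gm31629-/- mice. The groups overlapped in Gins4, with a log2 fold change of -0.03 (adjusted p = 0.90). Gins1 (-0.61, adjusted p = 0.16), Gins3 (0.05, adjusted p = 0.87), Cdc7 (-0.19, adjusted p = 0.58), and Dbf4 (-0.33, adjusted p = 0.15) did not pass either, and of these Gins1 passed without WT mouse 2 (-0.97, adjusted p = 0.021).

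Polymerase alpha with primase starts each new strand, and polymerases delta and epsilon extend it. Pold2 (ENSMUSG00000020471, chr11:5872180-5878292, minus strand), the second subunit of polymerase delta, had the lowest log2 fold change of FPKM + 1 of the 45 genes and shares no exonic base with another gene. That ranking depends on the 1 FPKM added, since by the ratio of means Pole differed more, 5.37-fold higher in WT. It was at 4.59, 6.92, and 5.17 FPKM in Gm31629-/- mice and at 34.4, 17.1, and 30.7 FPKM in WT mice. WT mouse 2 was the lowest WT mouse but still above every Gm31629-/- mouse. Pold2 fell by 2.07 (SE 0.28, adjusted p = 0.0016, limma), with a mean 4.93-fold higher in WT, and without WT mouse 2 the value was -2.37.

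The other delta subunits among the 47 genes are Pold1 and Pold3. The catalytic subunit Pold1 was at 2.55, 4.08, and 3.30 FPKM in Gm31629-/- mice and at 7.80, 3.71, and 7.31 FPKM in WT mice (-0.72, adjusted p = 0.072). Pold3 was at 11.0, 16.4, and 11.3 FPKM and at 10.4, 9.31, and 10.3 FPKM (0.32, adjusted p = 0.20). Neither passed the test, although every Gm31629-/- mouse was above every WT mouse in Pold3. Pold4, a delta subunit outside the 47 genes, was at 29.4, 35.0, and 28.3 FPKM in Gm31629-/- mice. In WT mice Pold4 was at 18.2, 25.6, and 19.5 FPKM, without overlap. It rose by 0.54 (SE 0.17, adjusted p = 0.041, limma) and passed in 1 of the 6 fits with a mouse left out. The ratio of Pold2 to Pold3 was 0.418, 0.422, and 0.457 in Gm31629-/- mice and 3.30, 1.84, and 2.99 in WT mice, and that of Pold2 to Pold1 was 1.80, 1.69, and 1.56 and 4.41, 4.61, and 4.20. These pairs were chosen after their values were seen. In both ratios the mice of a genotype were close together, WT mouse 2 included in the ratio to Pold1.

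Pola2, the second subunit of polymerase alpha, was at 3.90, 4.72, and 3.90 FPKM in Gm31629-/- mice and at 10.5, 7.04, and 12.9 FPKM in WT mice. Pole, the catalytic subunit of polymerase epsilon, was low, at 0.273, 0.262, and 0.161 FPKM and at 1.45, 0.523, and 1.76 FPKM. The groups did not overlap in either gene. Pola2 fell by 1.07 (SE 0.22, adjusted p = 0.0085, limma) and Pole by 0.82 (SE 0.24, adjusted p = 0.029, limma). The log2 scale with 1 FPKM added understates the change of such low genes, and the mean of Pole was 5.37-fold higher in WT. The primase genes Prim1 (-0.55, adjusted p = 0.081) and Prim2 (-0.28, adjusted p = 0.30) and Pole2 (-0.41, adjusted p = 0.25) did not pass, whereas without WT mouse 2 Prim1 (adjusted p = 0.025) and Pold1 (adjusted p = 0.020) did. Pola1, the catalytic subunit of polymerase alpha, lay under the filter and rested on 52, 99, and 38 fragments in Gm31629-/- mice and 107, 31, and 51 in WT mice, with overlap. Pola1 is X-linked, and of the 6 libraries Gm31629-/- mouse 1 alone had Y-linked genes above 0 and almost no Xist.

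Pcna, the sliding clamp, was the most abundant gene of the 47 in WT mice. Pcna (ENSMUSG00000027342, chr2:132249162-132253314, minus strand) was at 23.6, 29.2, and 19.9 FPKM in Gm31629-/- mice and at 47.2, 29.4, and 42.0 FPKM in WT mice. The groups were apart only by the margin between WT mouse 2 and Gm31629-/- mouse 2. Pcna fell by 0.67 (SE 0.22, adjusted p = 0.044, limma), and without WT mouse 2 the value was -0.87 (adjusted p = 0.025). It passed in 2 of the 6 fits with a mouse left out.

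The 5 Rfc genes encode the loader that opens the clamp. Rfc5 was at 2.74, 3.01, and 2.50 FPKM in Gm31629-/- mice and at 8.06, 3.66, and 7.82 FPKM in WT mice, and Rfc4 was at 1.42, 2.58, and 1.88 FPKM and at 4.86, 2.68, and 5.27 FPKM. Both separated the groups, and WT mouse 2 was the lowest WT mouse. Rfc5 fell by 0.94 (SE 0.27, adjusted p = 0.028, limma) and Rfc4 by 0.81 (SE 0.26, adjusted p = 0.039, limma). Of the exonic bases, 10.7% in Rfc5, 12.7% in Rfc4, and 15.1% in Rfc2 are shared with a gene on the opposite strand. Rfc2 (-0.54, adjusted p = 0.050), Rfc3 (-0.64, adjusted p = 0.077), and the large subunit Rfc1 (0.36, adjusted p = 0.21) did not pass, and of these Rfc3 passed without WT mouse 2 (-0.89, adjusted p = 0.024).

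Lig1, the ligase that seals the fragments of the lagging strand, was the most abundant gene among those for single-strand binding and flap processing in WT mice. Lig1 (ENSMUSG00000056394, chr7:13277283-13311433, plus strand) was at 3.03, 4.99, and 3.21 FPKM in Gm31629-/- mice and at 15.0, 7.59, and 17.1 FPKM in WT mice. The groups did not overlap. Lig1 fell by 1.54 (SE 0.31, adjusted p = 0.0076, limma), and without WT mouse 2 the value was -1.86.

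The subunits of RPA, which coats single-stranded DNA, did not pass, at -0.33 for Rpa1 (adjusted p = 0.24), -0.57 for Rpa2 (adjusted p = 0.22), and 0.06 for Rpa3 (adjusted p = 0.80), and Rpa2 passed without WT mouse 2 (-0.96, adjusted p = 0.028). Fen1, the flap endonuclease, did not reach the filter and rested on 0, 7, and 2 fragments in Gm31629-/- mice and on 6, 2, and 6 in WT mice. Of its exonic bases 84.2% are shared with other genes, 78.8% with Gm10143 on the opposite strand, so the level of Fen1 is uncertain.

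Ribonucleotide reductase (Rrm1 and Rrm2), thymidylate synthase (Tyms), and thymidine kinase (Tk1) supply the deoxynucleotides, and all 4 genes fell. Tk1 (ENSMUSG00000025574, chr11:117815526-117826092, minus strand) was at 1.76, 2.80, and 1.90 FPKM in Gm31629-/- mice and at 6.56, 4.34, and 7.59 FPKM in WT mice. Tyms was at 1.35, 1.67, and 1.40 FPKM and at 3.78, 2.71, and 4.24 FPKM. In these thymidylate genes the groups did not overlap, and WT mouse 2 was nearer to the other WT mice than in the MCM genes. Tk1 fell by 1.17 (SE 0.23, adjusted p = 0.0071, limma) and Tyms by 0.87 (SE 0.18, adjusted p = 0.0089, limma).

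Rrm2, the reductase subunit whose level is known to rise in S phase, was at 2.37, 4.56, and 2.24 FPKM in Gm31629-/- mice and at 9.40, 4.17, and 12.3 FPKM in WT mice. Rrm1 was at 1.71, 2.79, and 1.55 FPKM and at 6.91, 2.77, and 7.27 FPKM. In both reductase genes WT mouse 2 was below Gm31629-/- mouse 2, so the groups overlapped although the genes passed the test. Rrm2 fell by 1.19 (SE 0.38, adjusted p = 0.041, limma) and Rrm1 by 1.08 (SE 0.33, adjusted p = 0.036, limma), and without WT mouse 2 the values were -1.58 and -1.44. Both genes passed in 2 of the 6 fits with a mouse left out.

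A further list of 48 replication genes outside the 47 covers polymerase subunits, initiation factors, chromatin assembly, fork protection, translesion synthesis, and nucleotide metabolism. Of its 44 tested genes, 13 were lower and 5 higher, with a median log2 fold change of -0.27. Over all genes tested, 14.6% were lower and 28.9% higher, and the median was 0.15. Shmt1, a folate enzyme that feeds thymidylate synthesis, had the lowest value of the list and was at 1.75, 1.63, and 1.98 FPKM in Gm31629-/- mice and at 15.6, 10.3, and 19.0 FPKM in WT mice, without overlap. It fell by 2.48 (SE 0.23, adjusted p = 0.00048, limma). Uhrf1, which keeps DNA methylation after replication, fell by 1.997 (adjusted p = 0.022, limma). The histone chaperones Chaf1a and Asf1b fell by 1.27 (adjusted p = 0.031) and 1.24 (adjusted p = 0.033, limma). The groups overlapped in Asf1b, with Gm31629-/- mouse 2 at 2.90 FPKM and WT mouse 2 at 2.80 FPKM. With a mouse left out, Shmt1 passed in all 6 fits, Chaf1a in 3, and Uhrf1 and Asf1b in 2 each.

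The highest value of the list was that of Ctps, CTP synthase, at 22.8, 47.4, and 17.7 FPKM in Gm31629-/- mice and 6.85, 3.43, and 8.63 FPKM in WT mice, again without overlap, and it rose by 2.001 (SE 0.41, adjusted p = 0.0083, limma). Rrm2b, the reductase subunit known for use outside S phase, rose by 0.88 (adjusted p = 0.019), Rev1, a translesion polymerase, by 0.72 (adjusted p = 0.011), and Donson, a helicase assembly factor, by 0.60 (adjusted p = 0.035, limma). Ctps passed in all 6 fits with a mouse left out, Rrm2b and Rev1 in 5 each, and Donson in 1. Rrm2b was at 2.35, 1.52, and 0.973 FPKM in Gm31629-/- mice and at 0.521, 0.466, and 0.190 FPKM in WT mice. The ratio of Rrm2 to Rrm2b was 1.01, 3.01, and 2.30 in Gm31629-/- mice and 18.1, 8.95, and 64.7 in WT mice, a pair chosen after its values were seen, and the groups did not overlap in it.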

How the data were processed

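The authors deposited 1 table of FPKM values with a column per mouse, and the submitters' processing notes name HISAT2 2.1.0, HTSeq 0.6.0 and GRCm38. The annotation and strand setting are not given in the sources used here. Locations and exon lengths came from GENCODE M21 (GRCm38). From the size of 1 fragment, depths of 18002800 to 18793200 fragments per library were recovered, with 96.3% to 97.3% of values up to 20 fragments within 0.1 of a whole number. Groups came from the sample labels. Differences are Gm31629-/- minus WT of log2(FPKM + 1), fitted by limma's lmFit and trended eBayes (limma 3.58.1, R 4.3.3) over 14657 genes with a mean of at least 0.5 FPKM, with Benjamini-Hochberg adjustment over all of them. The script was tested on simulated data. The study used DEGseq on the same groups, which was not repeated.

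The genes and lists were chosen with earlier results of these data known. Every mouse's value is given for genes with adjusted p under 0.05 and, per complex, for the gene with the greatest absolute difference and the most abundant in WT. For further replication genes the 4 lowest and 4 highest that passed are named. Mcm3, Mcm4, Pold1, Pold3, Pold4, Pola1, Fen1 and Ascl2 are given by mouse beyond that rule, chosen after their values were seen. Marker genes named beside the most abundant of their list were also chosen in that way. Littermates were sampled once each, so p-values measure the spread between these mice. The alternatives tried were equal library sums, median ratio and colon epithelium scaling, no filter or one at 5 FPKM, a pseudocount of 0.1, eBayes without trend, voom on recovered fragments, a block for the replicate number, fits with 1 mouse left out, and a call rule with a log2 fold change past 1. Figures were drawn with matplotlib 3.10.9.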

Additional observations from a re-analysis of the deposited data

How the results depend on the processing

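Against 22 lower and 2 higher genes, the counts were 10 and 1 with no filter, 9 and 0 of 17 tested at a mean of at least 5 FPKM (limma, a filter that Orc3 and Orc4 do not pass), 3 and 6 with colon epithelium scaling, and 14 and 0 when a log2 fold change past 1 was also required, where the unadjusted p gave 15 and 0. Scaling by the median ratio gave 1 higher gene. Leaving out 1 mouse at a time gave 6 to 27 lower and 1 to 3 higher genes and a median log2 fold change of -0.97 to -0.56. That median, -0.67 as reported, was -1.07 at a mean of at least 5 FPKM and -0.22 with colon epithelium scaling. A pseudocount of 0.1 gave 23 lower genes, equal library sums 21, voom 22 and eBayes without trend 22. For these settings, the other filters and the unadjusted p, the share of all tested genes that passed was not computed. Those counts therefore do not tell a change in the replication genes from one shared by all genes.

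No gene that passed the test changed sign under any of these alternatives. Among genes that did not pass, the log2 fold change turned with colon epithelium scaling in Orc5 (0.30), Gins4 (0.53), Cdc7 (0.17), Prim2 (0.085) and Rpa1 (0.21), and with the median ratio in Gins3 (-0.031) and Rpa3 (-0.090). With 1 mouse left out at a time, the log2 fold change ranged across 0 in Orc5 (-0.172 to 0.035), Orc6 (-0.0094 to 0.439), Gins3 (-0.177 to 0.167), Gins4 (-0.126 to 0.062), Cdc7 (-0.396 to 0.015) and Rpa3 (-0.011 to 0.183).

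With the replicate number as a block, 12 genes were lower and 2 higher, and here too the share of all tested genes was not computed. The deviations of mice that share a number correlated at 0.036, -0.108 and 0.014, so the numbers were not taken as pairs. With 3 mice per genotype and WT mouse 2 apart from its group, the counts rest on few mice, and genes under 1 FPKM on few fragments. The cause of the changes with the settings was not tested.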
